A study of Danio rerio with 12 samples.

Results

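Transcripts of 9 genes of the Neuregulin-ErbB and insulin-like growth factor (IGF) pathways were followed in ventricular apices of adult zebrafish hearts. They were chosen by symbol, with no regard to expression level, from the 38049 genes counted in each library: the ErbB ligand gene *nrg1*, the ErbB receptor genes *erbb2*, *erbb3b*, and *erbb4a*, the IGF ligand genes *igf1*, *igf2a*, and *igf2b*, and the IGF receptor genes *igf1ra* and *igf1rb*. MT7 and MT0 denote *nkx2.5-/-* fish (vu179 allele) that also carried *Tg(hsp70l:nkx2.5-EGFP)*, TG7 and TG0 denote wild-type fish with the same transgene, and WT7 and WT0 denote wild-type fish without it. Hearts were taken 7 days after amputation of the ventricular apex (MT7, TG7, WT7) or without injury (MT0, TG0, WT0). The fish were adults of 3 to 18 months, and all 6 groups shared a heat shock at 21 somites, which let the transgene carry the mutants through embryonic life. The transgene is driven by *hsp70l*, a heat-shock promoter that is not restricted to one cell type and can also respond to stress. Each group had 2 biological replicates, each of them RNA from 6 pooled apices, so that differences between single fish are hidden and an apex holds myocardium together with every other cell type of the ventricle.

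Neuregulin 1 is a secreted or membrane-bound growth factor that binds ErbB3 and ErbB4, which pair with ErbB2, a receptor without a ligand of its own. In the injured zebrafish heart it is known as a mitogen of cardiomyocytes that comes from cells around vessels. IGF1 and IGF2 act on IGF1 receptors, IGF binding proteins hold the ligands in the extracellular space, and proteases such as Pappaa release them. In zebrafish, Igf2b is known to be produced by the epicardium and endocardium of the injured heart, and both pathways signal through the RAS-ERK and PI3K-AKT cascades.

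Total counts ranged from 14234818 to 24544150 per library, at which 3 counts correspond to 0.121 to 0.224 counts at the usual scaling by library size (CPM). Of the 9 members, 8 passed the filter on low counts and were tested. A gene was called when its log2 fold change was above 0.5 or below -0.5 with an edgeR FDR below 0.05 over all 19014 tested genes. WT0 replicate 1 stood apart from the rest. With 0.2 CPM added to each value, its CPM was more than 3-fold above that of every other library in 488 tested genes. By the same rule the other libraries led in 0 to 95 genes, with MT7 replicate 1 at 95 and MT7 replicate 2 at 53. Markers of the labelled tissue were abundant throughout, with 6 cardiomyocyte markers summing to 20767 to 30449 CPM in MT7, 36744 to 52314 in MT0, 44806 to 50731 in TG7, 71066 to 77111 in TG0, 48696 to 51918 in WT7, and 62736 to 68739 in WT0. Of these 6 markers, 4 were called lower and 0 higher in MT7 against WT7 (10.2% of all genes). In MT7 against TG7, 1 was called lower and 0 higher (2.78%). In MT0, 2 were called lower and 1 higher against WT0 (25.3%), and 2 lower and 0 higher against TG0 (20.8%). The part of this difference in the levels of the members was not tested. Transcripts known from other organs were also seen, with 7 vitellogenin genes summing to 3994 CPM in MT7 replicate 2 and 5 exocrine pancreas genes to 211 CPM in TG0 replicate 2. Transcripts listed as *nkx2.5* do not check the labels, because the mutant allele and the transgene are counted under that name. They stood at 204 and 311 CPM in MT7, 450 and 345 in MT0, 166 and 186 in TG7, 267 and 271 in TG0, 220 and 184 in WT7, and 269 and 271 in WT0.

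After injury, the IGF ligand genes *igf1* and *igf2a* were called higher in the average over the genotypes, although in no single genotype, and *nrg1* was not called. These 2 of the 8 tested members stand beside 24.9% of all tested genes, so that members were called about as often as genes in general. In MT7 against MT0 only *igf2b* was called, and it was lower (12% of all genes called). In WT7 against WT0 *igf2b* was called higher and *erbb2* lower (24.2% of all genes). In TG7 against TG0 edgeR called 0 members (9.37% of all genes), although 3 had an unadjusted p below 0.05 and DESeq2 called 2, *igf2a* and *igf2b*. The median log2 fold change of the 8 members was 0.09 in MT7 against MT0, 0.51 in TG7 against TG0, and -0.99 in WT7 against WT0, where the median over all genes lay between 0.00031 and 0.0046. The value of -0.99 leans on WT0 replicate 1. Without that library *erbb2*, *igf1ra*, and *igf1rb* were at -0.46, 0.25, and 0.24 in WT7 against WT0, instead of -3.55, -1.98, and -1.21. There *nrg1* and *erbb3b* stayed below 0, at -0.82 and -2.40, and the 3 IGF ligand genes stayed above 0.

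Between genotypes, uninjured mutant ventricles had more *igf2b* and more *nrg1*. Both were called in MT0 against WT0, together with lower *erbb2*, a call that was lost without WT0 replicate 1. This makes 3 of 8 members against 25.3% of all genes. Both were also called in MT0 against TG0 (2 of 8 members, 20.8% of all genes), where members were called about as often as genes in general. TG0 against WT0 gave 3 calls, *igf2b* higher and *erbb2* and *igf1ra* lower (22.5% of all genes). At 7 days, *nrg1* and *igf2b* were called higher in MT7 than in WT7 (2 members, 10.2% of all genes). In MT7 against TG7 edgeR called 0 members (2.78% of all genes) with 2 at an unadjusted p below 0.05, and in TG7 against WT7 it also called 0 (1.14%) with 1 at an unadjusted p below 0.05; DESeq2 called 0 members in both. The median log2 fold change of the 8 members was 0.54 in MT0 against WT0 and 1.07 in MT0 against TG0, beside 0.02 and 0.03 over all genes. These comparisons share libraries and are not independent of each other.

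Neuregulin 1 transcripts were more abundant in mutant ventricles with and without injury. They stood at 4.31 and 3.66 CPM in MT7, 3.28 and 6.19 in MT0, 1.93 and 1.1 in TG7, 0.79 and 1.41 in TG0, 0.73 and 0.53 in WT7, and 1.02 and 1.12 in WT0, from 12 to 138 counts per library. All 4 mutant libraries lay above all 8 libraries of the other genotypes. The share of all genes with libraries separated in this way was not counted, here or for the other members below. MT0 averaged 4.73 ± 2.06 CPM against 1.1 ± 0.43 in TG0 and 1.07 ± 0.07 in WT0 (SD, n = 2 each). This gave a log2 fold change of 2.09 ± 0.45 (SE) over TG0 (edgeR FDR 0.00922) and of 2.15 ± 0.46 over WT0 (edgeR FDR 0.00812), or 4.26-fold and 4.43-fold.

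The calls for *nrg1* in uninjured hearts rest on few libraries. The one over WT0 was lost without WT0 replicate 1 or without MT0 replicate 2, and the one over TG0 without TG0 replicate 1 or MT0 replicate 2, with an edgeR FDR of at most 0.0807. The log2 fold change stayed between 1.57 and 2.58 in both comparisons whichever library was left out. After injury, MT7 averaged 3.99 ± 0.46 CPM against 1.52 ± 0.59 in TG7 and 0.63 ± 0.14 in WT7 (SD, n = 2 each). The excess of MT7 over WT7 was called (log2 fold change 2.66 ± 0.47, edgeR FDR 0.00707), though not without either of the WT7 replicates. That of MT7 over TG7 was 1.41 ± 0.43 and did not pass (edgeR FDR 0.128), while the libraries did not overlap.

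Within each genotype, injury left *nrg1* without a call. The log2 fold change was -0.25 ± 0.41 in MT7 against MT0, 0.44 ± 0.46 in TG7 against TG0, and -0.76 ± 0.50 in WT7 against WT0, with edgeR FDR of 0.736, 0.582, and 0.283. The average over the genotypes was -0.19 ± 0.26, with a 95% interval from -0.78 to 0.40. None of the 3 tests of whether injury moved *nrg1* differently between genotypes was passed (edgeR FDR from 0.321 to 0.714). The plot of ligand transcripts by library shows these values.

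**Figure D1:**
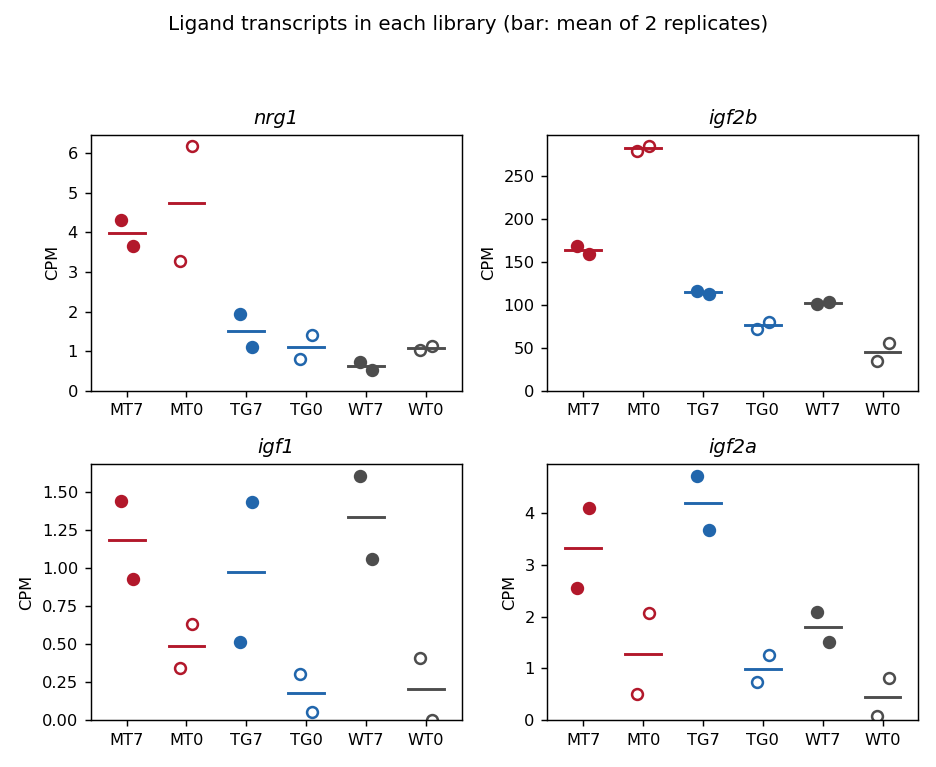
Library-scaled counts (CPM, linear axes from 0) of the 4 ligand genes in each of the 12 libraries, by group; points are the 2 replicates (filled, 7 days after amputation; open, uninjured) and bars their mean. The *nrg1* points of MT7 and MT0 lie between 3.28 and 6.19 CPM, above all others, and *igf2b* is highest in MT0.

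Markers of some of the cell types that are known to make these ligands also differed between genotypes. The 5 perivascular and smooth muscle markers summed to 667 to 1247 CPM in MT0, 213 to 400 in TG0, and 330 to 356 in WT0. Of these 5, 3 were called higher and 1 lower in MT0 against WT0 (25.3% of all genes). In MT0 against TG0, 3 were called higher and 0 lower (20.8%). A further listed gene, *pdgfrb*, was not matched in the counts. The 6 fibroblast markers summed to 1595 to 2114, 858 to 937, and 468 to 517 CPM in the same order. Of these 6, 5 were called higher than in WT0, 4 higher than in TG0, and 0 lower. The 5 epicardium markers summed to 243 to 388 CPM in MT0, 145 to 155 in TG0, and 138 to 196 in WT0. In MT0, 4 of them were called higher and 0 lower against each of TG0 and WT0. The 6 endothelium and endocardium markers summed to 583 to 601 CPM in MT0, 570 to 637 in TG0, and 646 to 890 in WT0, with 0 of 6 called in MT0 against TG0 and 1 higher and 1 lower in MT0 against WT0. None of these markers was at 0 counts in any library, and their part in the excess of *nrg1* and *igf2b* was not tested. In bulk tissue, fewer cells of a type and less RNA per cell cannot be told apart. In injured hearts the fibroblast markers summed to 3894 to 4132 CPM in MT7, 3986 to 4068 in TG7, and 3612 to 3932 in WT7. The epicardium markers summed to 494 to 570 CPM in MT7, 399 to 402 in TG7, and 280 to 344 in WT7. In the same order, the perivascular and smooth muscle markers summed to 757 to 1046, 585 to 687, and 590 to 774 CPM. The endothelium and endocardium markers summed to 441 to 582, 516 to 576, and 464 to 498 CPM.

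The ErbB receptor transcripts were scarce in the apex. Receptor gene *erbb2*, the shared signalling partner, stood at 0.33 and 0.56 CPM in MT7, 0.34 and 0.67 in MT0, 0.97 and 0.57 in TG7, 0.30 and 0.80 in TG0, 0.87 and 1.28 in WT7, and 23.9 and 1.49 in WT0. A single library, WT0 replicate 1 with 353 counts, was 16.0-fold above the next, and the other 11 held 5 to 29 counts each. The calls against WT0 follow that library: the log2 fold change was -4.61 ± 1.08 in MT0 (edgeR FDR 0.0121), -4.48 ± 1.08 in TG0 (edgeR FDR 0.0165), and -3.55 ± 1.0 in WT7 (edgeR FDR 0.0279). Without WT0 replicate 1 they were -1.52, -1.39, and -0.46, and none was called (edgeR FDR from 0.205 to 0.736).

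Receptor gene *erbb3b*, whose protein binds neuregulin directly, was near the limit of counting. It stood at 0.70 and 0.48 CPM in MT7, 0.17 and 0.54 in MT0, 0.28 and 0.16 in TG7, 0.43 and 0.05 in TG0, 0.15 and 0.04 in WT7, and 0.27 and 0.52 in WT0, from 1 to 17 counts. The MT7 libraries lay above those of TG7 and WT7, but no comparison of *erbb3b* was called, and the log2 fold change over WT7, 2.59 ± 1.0, had an edgeR FDR of 0.134. For *erbb4a*, another receptor that binds neuregulin, 7 libraries had no count and the highest had 5, so that it was not tested. A second row of the same symbol, *erbb4a-2*, held 0 to 9 counts, and both rows together 1 to 13. At this depth a difference in *erbb4a* was not detectable.

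**Figure D2:**
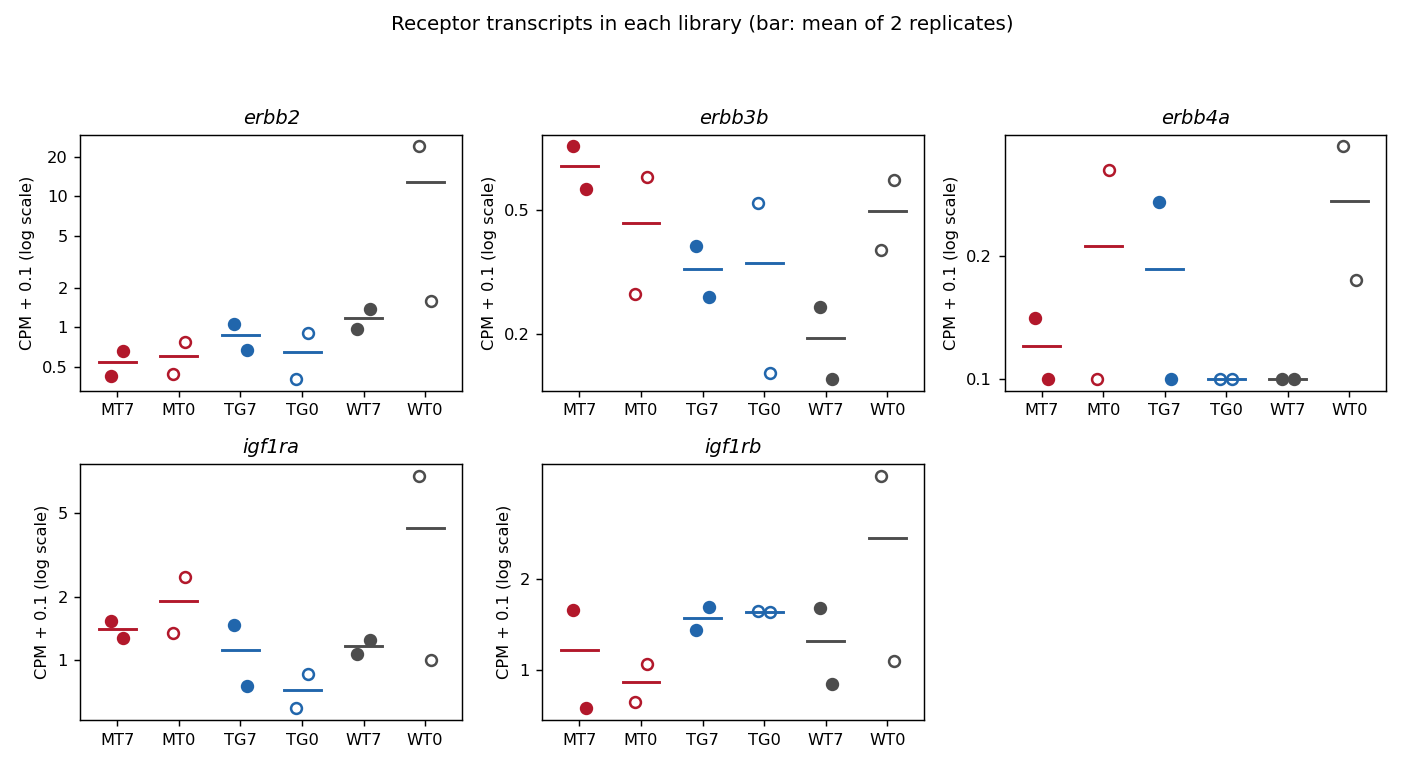
CPM + 0.1 on log axes for the 5 receptor genes in each of the 12 libraries, by group; points are replicates (filled, 7 days after amputation; open, uninjured) and bars the mean of the 2 replicates. One WT0 library, replicate 1, lies above all others for *erbb2* (23.9 CPM), *igf1ra* (7.45 CPM), and *igf1rb* (4.34 CPM).

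Among the IGF ligands, *igf2b* differed most clearly between groups, and injury moved it in opposite directions in mutant and wild-type hearts. It stood at 169 and 159 CPM in MT7, 279 and 285 in MT0, 116 and 113 in TG7, 72.0 and 80.3 in TG0, 101 and 104 in WT7, and 34.3 and 55.0 in WT0. No 2 groups overlapped, and the share of all genes for which this holds was not counted. The order of the means was MT0, MT7, TG7, WT7, TG0, WT0, in which TG7 and WT7 differed by a log2 fold change of 0.16 ± 0.18 that was not called (edgeR FDR 0.805).

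Uninjured mutant hearts had the most *igf2b*. MT0 averaged 282 ± 4.68 CPM against 76.1 ± 5.88 in TG0 and 44.7 ± 14.6 in WT0 (SD, n = 2 each). The log2 fold change was 1.89 ± 0.19 over TG0 (3.70-fold, edgeR FDR 0.000186) and 2.66 ± 0.19 over WT0 (6.32-fold, edgeR FDR 5.18e-05). Both calls held whichever of the 12 libraries was left out, and the value over WT0 was 2.37 without WT0 replicate 1. Carriers of the transgene alone were also above WT0, by 0.77 ± 0.18 (edgeR FDR 0.0157). That smaller difference was 0.47 without WT0 replicate 1 and was also lost without either TG0 replicate (edgeR FDR up to 0.0928).

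At 7 days after amputation the genotypes lay closer together. MT7 averaged 164 ± 6.75 CPM against 114 ± 2.09 in TG7 and 102 ± 1.82 in WT7 (SD, n = 2 each). MT7 was above WT7 by a log2 fold change of 0.68 ± 0.18 (edgeR FDR 0.0390), a call that was lost in 10 of the 12 fits that left out a library although the value stayed between 0.65 and 0.75. Over TG7 the difference was 0.53 ± 0.18 and was not called (edgeR FDR 0.167).

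The change with injury was a fall in the mutant and a rise in non-transgenic wild-type hearts. In MT7 against MT0 *igf2b* fell by 0.78 ± 0.18 on the log2 scale (edgeR FDR 0.0223), and in WT7 against WT0 it rose by 1.20 ± 0.18 (edgeR FDR 0.00213). In TG7 against TG0 it was higher by 0.58 ± 0.18 (edgeR FDR 0.0685), short of the threshold, with both TG7 libraries above both TG0 libraries. Leaving out any library of the 2 groups compared took the mutant call away (edgeR FDR up to 0.10) at values from -0.83 to -0.73, whereas the wild-type call held in each such fit.

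The differences between these injury changes were tested directly. The change in the mutant minus that in WT was -1.97 ± 0.26 for *igf2b*, the only member called (1 of 8, edgeR FDR 0.00793, 1.97% of all genes called), and it was -1.69 and still called without WT0 replicate 1, but was not called without WT7 replicate 2 (edgeR FDR 0.0574). The change in the mutant minus that in TG was -1.36 ± 0.25, again the only member called (edgeR FDR 0.0351, 1.41% of all genes), with values from -1.46 to -1.30 and calls lost in 10 of the 12 fits that left out a library. For the change in TG minus that in WT edgeR called 0 members (3.64% of all genes) with 3 at an unadjusted p below 0.05, while DESeq2 called 1, *erbb2*. The 3 were *erbb2*, *igf1ra*, and *igf2b*. Without WT0 replicate 1 their edgeR values were 0.90, 0.42, and -0.31, instead of 3.97, 2.64, and -0.61. In that contrast *igf2b* gave -0.61 ± 0.26 (edgeR FDR 0.190). The first pair of contrasts shares the MT7 and MT0 libraries.

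**Figure D3:**
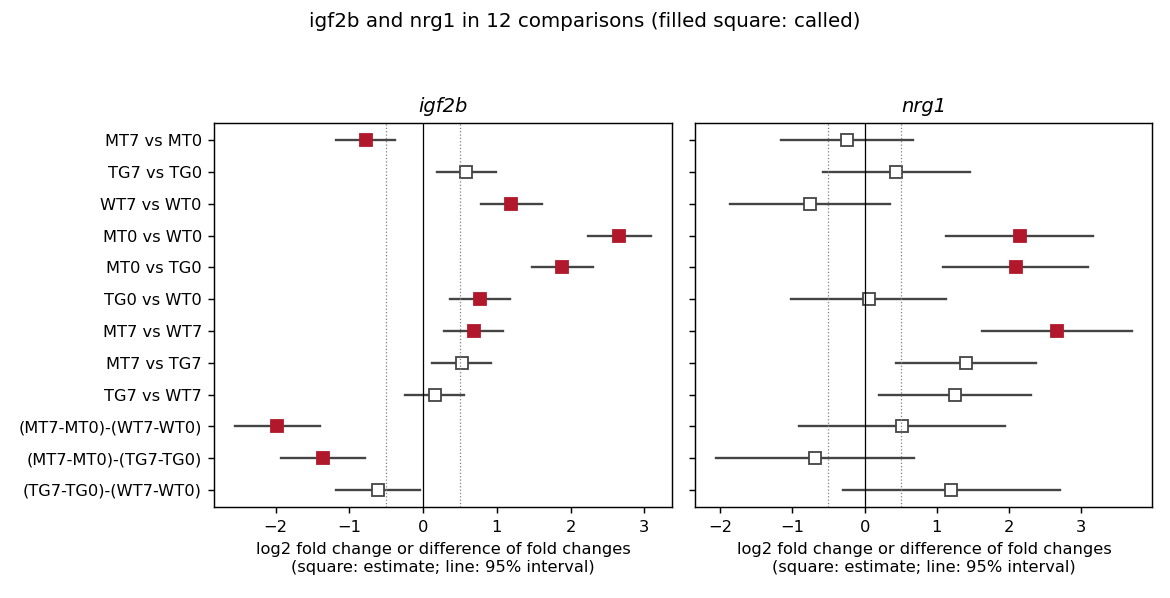
Log2 fold changes of *igf2b* and *nrg1* in 9 comparisons of groups and 3 differences between injury changes (rows), with 95% intervals as lines, filled squares where called, and dotted lines at -0.5 and 0.5. For *igf2b* the square of MT7 against MT0 lies at -0.78 and that of WT7 against WT0 at 1.20, and for *nrg1* the called squares are MT0 against WT0, MT0 against TG0, and MT7 against WT7.

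The other 2 IGF ligand genes were low in uninjured hearts and higher after injury. Transcripts of *igf1*, the endocrine and local ligand of the IGF1 receptor, stood at 1.44 and 0.92 CPM in MT7, 0.34 and 0.63 in MT0, 0.51 and 1.43 in TG7, 0.30 and 0.05 in TG0, 1.6 and 1.06 in WT7, and 0.41 and 0 in WT0. Both injured libraries lay above both uninjured ones in each genotype. Averaged over the genotypes, *igf1* rose by 2.13 ± 0.57 on the log2 scale (edgeR FDR 0.0156), which was not called in any single genotype (edgeR FDR from 0.0854 to 0.376). The call was lost without TG7 replicate 2, WT7 replicate 1, MT0 replicate 1, or TG0 replicate 2 (edgeR FDR up to 0.0702), and the value ranged up to 3.84 without WT0 replicate 1, when the only WT0 library left had 0 counts.

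Some transcripts known from the liver, the main source of circulating IGF1, were also higher after injury, but not all of them in each genotype. The 6 hepatocyte genes examined summed to 485 to 754 CPM in MT7, 53.7 to 125 in MT0, 413 to 521 in TG7, 68.3 to 71.5 in TG0, 304 to 370 in WT7, and 21.9 to 31.2 in WT0, most of it *tfa*, the transferrin gene. In WT7 *tfa* was at 300 and 365 CPM, against 18.7 and 24.1 in WT0, and cp, the ceruloplasmin gene, at 0.63 and 0.57 CPM, against 0 and 0. Others of the 6 did not rise in WT7. There *serpinc1* was at 2.86 and 3.89 CPM, against 2.98 and 5.07 in WT0. Likewise *fga* was at 0.19 and 0 CPM, against 0 and 0.22, and *fgb* at 0.05 and 0.09 CPM, against 0.20 and 0.15. The defining gene *fabp10a*, which encodes the liver fatty acid binding protein, was at 0.41 and 15.1 CPM in MT7, 0.79 and 0.94 in MT0, 12.2 and 7.28 in TG7, 0.12 and 0.35 in TG0, 0.15 and 0.13 in WT7, and 0 and 1.64 in WT0. The part of liver transcripts in the *igf1* values was not tested. These liver genes, and those of yolk and pancreas above, were listed after their values had been seen.

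Transcripts of *igf2a*, a duplicate of *igf2b*, stood at 2.55 and 4.10 CPM in MT7, 0.51 and 2.06 in MT0, 4.72 and 3.68 in TG7, 0.73 and 1.26 in TG0, 2.09 and 1.5 in WT7, and 0.07 and 0.82 in WT0. Each injured group lay above its uninjured counterpart. Averaged over the genotypes, *igf2a* rose by 1.81 ± 0.45 on the log2 scale (3.51-fold, edgeR FDR 0.0106), and the call held whichever library was left out, with values from 1.51 without WT0 replicate 1 to 2.67 without WT0 replicate 2. In single genotypes it was 1.35 ± 0.72 in MT7 against MT0, 2.06 ± 0.74 in TG7 against TG0, and 2.03 ± 0.85 in WT7 against WT0, none of them called (edgeR FDR from 0.103 to 0.239). The annotation lists each of *igf2a* and *igf2b* as an older name of the other, and the names are those of the count files. For *igf2b* itself the average over the genotypes was 0.33 ± 0.10, below the fold threshold.

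**Figure D4:**
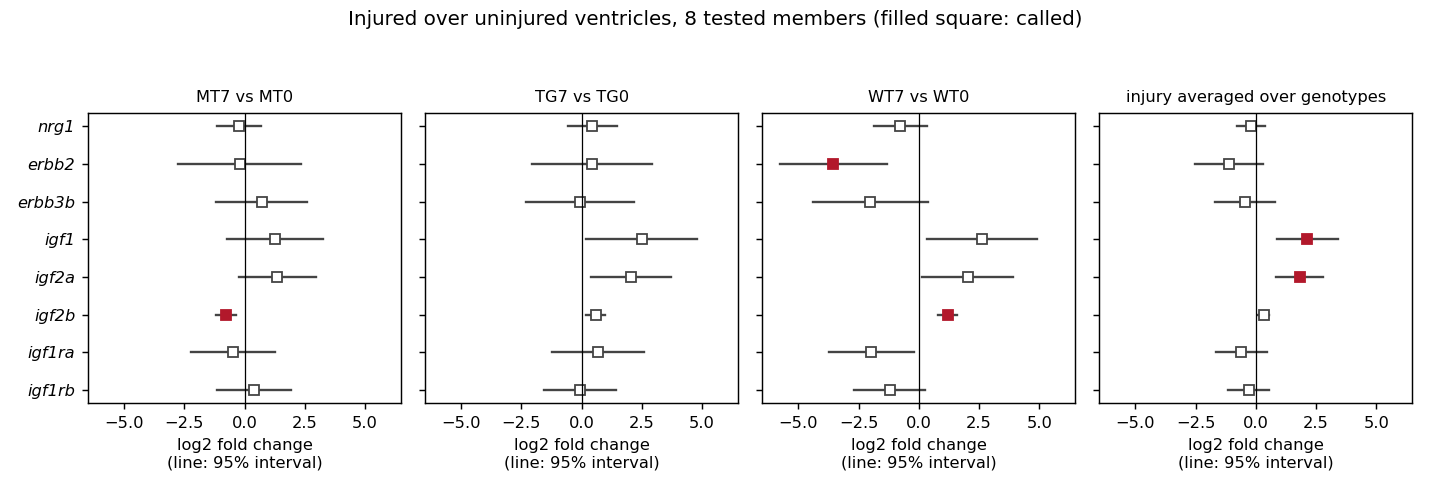
Log2 fold changes of the 8 tested members in injured over uninjured hearts of each genotype and averaged over genotypes (4 panels), with 95% intervals as lines and filled squares where called. Squares of *igf1* and *igf2a* lie above 0 in each panel and are filled in the average, at 2.13 and 1.81.

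The IGF receptor genes showed no called change with injury. Transcripts of *igf1ra* stood at 1.44 and 1.17 CPM in MT7, 1.24 and 2.38 in MT0, 1.37 and 0.65 in TG7, 0.49 and 0.75 in TG0, 0.97 and 1.15 in WT7, and 7.45 and 0.89 in WT0. As with *erbb2*, WT0 replicate 1 was the highest library, with 110 counts against 12 in WT0 replicate 2. The one call was TG0 below WT0, at a log2 fold change of -2.73 ± 0.84 (edgeR FDR 0.0405). It was lost in 11 of the 12 fits that left out a library. It was also lost with limma-voom, with a replicate block, and in a fit of the compared libraries only. The value was -0.51 without WT0 replicate 1. MT0 against WT0 was -1.20 ± 0.77 (edgeR FDR 0.269) with it and 1.03 without it (edgeR FDR 0.326).

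In the annotation *igf1ra* overlaps *pgpep1l*, a peptidase-like gene, and *igf1* overlaps *nup37*, a nuclear pore gene. The library kit does not mark strand, so reads of overlapping genes cannot be told apart with certainty. In MT0, *pgpep1l* was called higher over TG0 (log2 fold change 1.70 ± 0.33, edgeR FDR 0.00576) and over WT0 (1.93 ± 0.34, edgeR FDR 0.0034), where *igf1ra* had values of 1.53 ± 0.84 (edgeR FDR 0.221) and -1.20 ± 0.77. For *nup37* the log2 fold change after injury averaged over the genotypes was -0.02 ± 0.13, beside that of *igf1*.

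Transcripts of *igf1rb*, the other IGF1 receptor gene, stood at 1.48 and 0.64 CPM in MT7, 0.68 and 0.94 in MT0, 1.25 and 1.51 in TG7, 1.46 and 1.46 in TG0, 1.5 and 0.79 in WT7, and 4.34 and 0.97 in WT0. Outside WT0 replicate 1 the libraries of all groups lay within 0.64 to 1.51 CPM. No comparison of *igf1rb* was called, and MT0 against WT0, at -1.70 ± 0.68, came nearest (edgeR FDR 0.0898). Without WT0 replicate 1 that value was -0.24.

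For each member called at least once, the 3 genes with the highest Pearson correlation of log2 CPM over the 12 libraries were listed among 13377 genes. For *igf2b* they were *st8sia1*, a sialyltransferase gene (r = 0.97), *rbfox2*, a splicing regulator (r = 0.97), and *fam117ab* (r = 0.96). For *nrg1* they were *zgc:165653* (r = 0.97), *selm* (r = 0.95), and *atp2b1a*, a plasma membrane calcium pump (r = 0.93). For *igf2a* they were *cxcl14*, a chemokine, *tgfbi*, an extracellular matrix protein, and *il12rb2l* (r from 0.95 to 0.96). These 3 genes and *igf2a* were lowest in WT0 replicate 1, and r was 0.87 to 0.91 without that library. For *igf1* they were *itga6a*, an integrin subunit, LOC100534706, and a gene known only by a clone name (r from 0.90 to 0.92). The nearest of *erbb2*, which were *rsu1*, *mpi*, and *nfia*, and of *igf1ra*, which were *tmod2*, *ykt6*, and *chpfa*, shared the peak in WT0 replicate 1, and their r of 0.94 to 0.98 was 0.81 to 0.91 over the 11 other libraries. The libraries share genotype, injury, and depth, and the correlations are a description.

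Downstream of both receptors, 8 ERK feedback and response genes were called higher in uninjured mutant hearts than in WT0, and 4 were called higher than in TG0. Of 14 such genes 13 were tested. In MT0 against WT0 0 were called lower (25.3% of all genes called), with a median log2 fold change of 1.03 over the 13, and in MT0 against TG0 0 were called lower and 9 not called (20.8% of all genes), with a median of 1.08. The ETS factor gene *etv4* was at 124 and 101 CPM in MT0, against 12 and 21.1 in TG0 and 12.8 and 15.3 in WT0, a log2 fold change of 2.76 ± 0.25 over TG0 and 3.0 ± 0.25 over WT0 (edgeR FDR 0.000122 and 8.35e-05). Its relative *etv5b* was at 105 and 71.1 CPM in MT0, against 18.4 and 29.1 in TG0 and 26.6 and 18.7 in WT0, or 1.88 ± 0.28 and 1.95 ± 0.28 (edgeR FDR 0.00153 and 0.00128). Named after their values were seen, the other genes called over WT0 were the ERK phosphatase genes *dusp4*, *dusp5*, and *dusp6*, the Sprouty inhibitors *spry2* and *spry4*, and the immediate early gene *egr1*, and those over TG0 also *dusp4* and *spry4*.

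Calls of ERK genes after injury were also counted within each genotype. Of the 13 tested genes, 0 were called higher and 1 lower in MT7 against MT0 (12% of all genes), 1 higher and 0 lower in TG7 against TG0 (9.37%), and 4 higher and 0 lower in WT7 against WT0 (24.2%), with medians of -0.31, 0.54, and 0.95. Tests of the differences between these injury changes called 1 of 13 in the mutant minus WT (1.97% of all genes). They called 1 in the mutant minus TG (1.41%) and 0 in TG minus WT (3.64%). As for *igf2b*, *etv4* was called lower in MT7 than in MT0 (-0.84 ± 0.23, edgeR FDR 0.0392) and higher in WT7 than in WT0 (1.54 ± 0.24, edgeR FDR 0.00229). It was the only gene of the list called in the change of the mutant minus that of WT (-2.38 ± 0.33, edgeR FDR 0.00991). When averaged over the genotypes, 3 were called higher (24.9% of all genes), *etv4* (0.59 ± 0.13), *etv5b* (0.68 ± 0.16), and *dusp4* (0.52 ± 0.16), with edgeR FDR from 0.00734 to 0.0299. Between injured groups, 0 of the 13 were called in MT7 against WT7 (10.2% of all genes), with a median of 0.28. In MT7 against TG7, 1 was called higher and 0 lower (2.78%), with a median of 0.35. The genes of this list answer to other receptors of the RAS-ERK cascade as well.

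**Figure D5:**
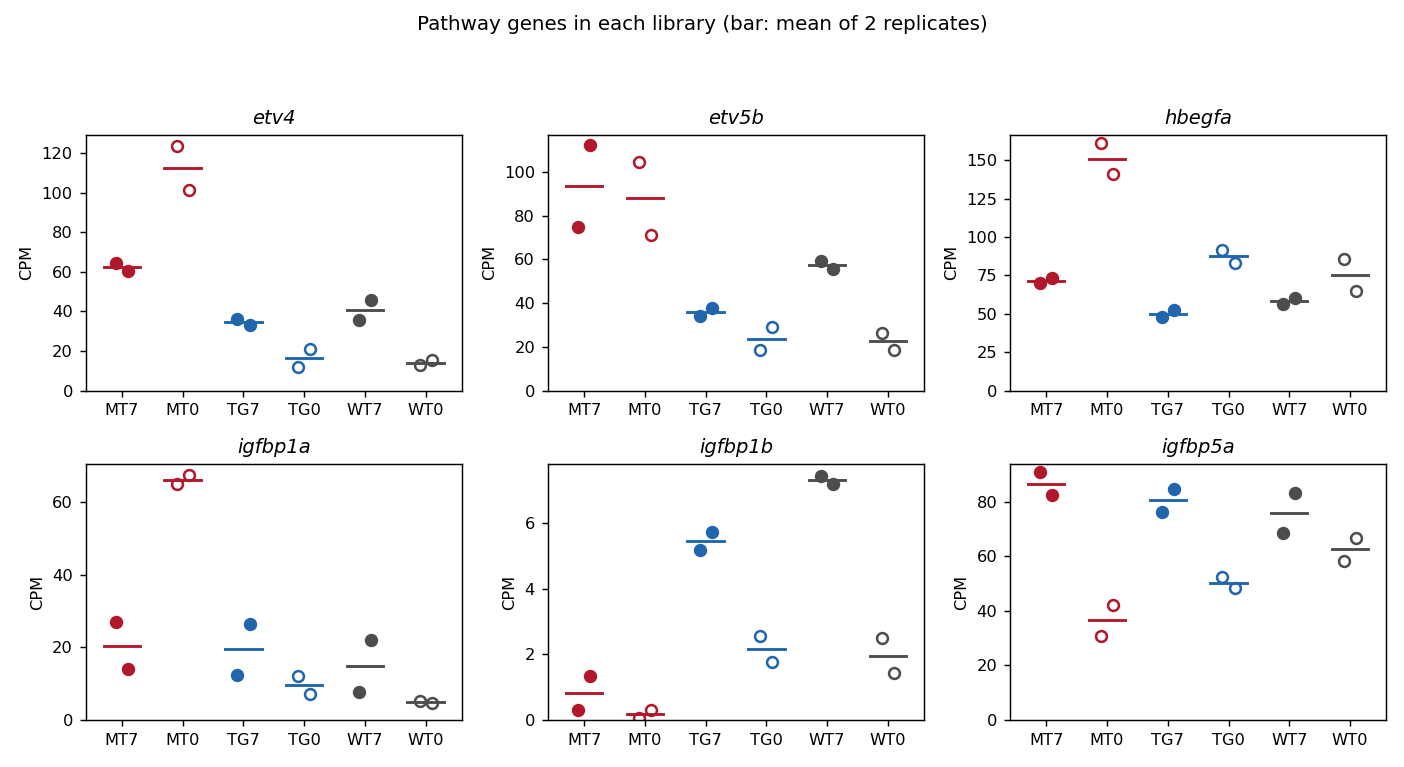
CPM (linear axes from 0) of 6 pathway genes in each of the 12 libraries, by group; points are replicates (filled, 7 days after amputation; open, uninjured) and bars the mean of the 2 replicates. In MT0 the points of *etv4* (101 and 124 CPM), *hbegfa* (141 and 161 CPM), and *igfbp1a* (65.1 and 67.3 CPM) lie above those of TG0 and WT0.

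Of 13 other ErbB ligand and receptor genes matched, 10 were tested. In the average over the genotypes 1 was called higher and 1 lower after injury (24.9% of all genes), and both encode heparin-binding EGF-like growth factors: *hbegfb* was higher (1.88 ± 0.22, edgeR FDR 0.000244) and *hbegfa* lower (-0.75 ± 0.08, edgeR FDR 0.000169). In MT0, *hbegfa* was at 161 and 141 CPM, against 91.8 and 83.1 in TG0 and 85.8 and 65.1 in WT0, and was called higher over both (0.79 ± 0.14 and 1.0 ± 0.14, edgeR FDR 0.00413 and 0.00119). The list had 1 call higher and 0 lower in MT0 against TG0 (20.8% of all genes) and 2 higher and 2 lower in MT0 against WT0 (25.3%). One of those lower than in WT0 was the receptor gene *erbb4b* (-2.64 ± 0.54, edgeR FDR 0.00646), which was at 1.36 and 1.44 CPM in MT0, against 13.8 and 3.73 in WT0, with the higher value in WT0 replicate 1. A second row of the EGF receptor gene, egfra-2, lay outside the list and was named after its values were seen. It was at 6.23 to 22.0 CPM and was called higher after injury averaged over the genotypes (0.91 ± 0.15, edgeR FDR 0.00143), in MT0 over WT0 (0.86 ± 0.26, edgeR FDR 0.0361), and in MT0 over TG0 (0.90 ± 0.26, edgeR FDR 0.0339). The listed row, *egfra*, differed from it. That row was at 2.09 and 3.90 CPM in MT0, against 1.52 and 1.31 in TG0 and 4.61 and 4.02 in WT0. It was not called after injury averaged over the genotypes or in MT0 over TG0.

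Genes listed for the release or restraint of ErbB signals gave calls in both directions. Of 11 tested, 1 was called higher and 2 lower after injury averaged over the genotypes, near the 24.9% of all genes. The sheddase gene *adam10a* was higher (1.15 ± 0.08, edgeR FDR 1.49e-05), and the receptor inhibitor genes *errfi1a* (-0.54 ± 0.09, edgeR FDR 0.00178) and *lrig1* (-0.52 ± 0.10, edgeR FDR 0.00305) were lower. In MT0 against WT0, 2 were called higher and 1 lower (25.3% of all genes), among them *adam10a* (0.93 ± 0.14, edgeR FDR 0.00169) and *lrig3*, a relative of *lrig1* (-1.06 ± 0.15, edgeR FDR 0.000929). In MT0 against TG0, 3 were called higher and 1 lower (20.8% of all genes), among them the sheddase gene *adam17a* (0.75 ± 0.14, edgeR FDR 0.00397) and *lrig3* (-1.78 ± 0.15, edgeR FDR 0.000101). For *adam17a* the group apart was TG0, at 55.0 and 44.8 CPM, against 90.9 and 77.1 in MT0 and 87.5 and 77.4 in WT0.

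IGF binding protein genes were called in both directions. Of 17 genes of binding proteins and their proteases 12 were tested, and 3 were called higher and 1 lower after injury averaged over the genotypes (24.9% of all genes), with a median of 0.42. Transcripts of *igfbp5a* rose by 0.73 ± 0.10 (edgeR FDR 0.000411) and those of *igfbp1b* by 1.75 ± 0.38 (edgeR FDR 0.00563), and *igfbp6b* fell by 1.25 ± 0.27 (edgeR FDR 0.00545) on the log2 scale. Counts of *igfbp6a* were 8 to 44 in injured libraries and at most 1 in uninjured ones, which is at least 6.45-fold higher when the uninjured libraries are set to 3 counts each; the list's median was 0.42 with this bound too.

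In the mutant, the 2 igfbp1 genes went opposite ways. Transcripts of *igfbp1a* were at 65.1 and 67.3 CPM in MT0, against 12.1 and 7.19 in TG0 and 5.08 and 4.55 in WT0, or higher by 2.79 ± 0.52 and 3.78 ± 0.56 (edgeR FDR 0.00485 and 0.00143). Transcripts of *igfbp1b* were at 0.06 and 0.31 CPM in MT0, against 2.56 and 1.76 in TG0, a log2 fold change of -3.42 ± 0.75 (edgeR FDR 0.0104). The list had 2 calls higher and 3 lower in MT0 against WT0 (25.3% of all genes), and among the lower ones was *igfbp5a* (-0.77 ± 0.17, edgeR FDR 0.00854), and 3 higher and 1 lower in MT0 against TG0 (20.8%).

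Of 7 tested genes of insulin receptors and their substrates, 3 were called lower and 0 higher after injury averaged over the genotypes, beside 24.9% of all genes called in either direction: the insulin receptor genes *insra* (-0.51 ± 0.11, edgeR FDR 0.00544) and *insrb* (-1.07 ± 0.33, edgeR FDR 0.0285), and *irs1*, an adaptor of both receptors (-1.08 ± 0.38, edgeR FDR 0.0477). For *irs1* the libraries were at 86.2 CPM in WT0 replicate 1 and at 5.63 to 18.4 CPM elsewhere, and *insrb* was also highest there, at 16.5 CPM. In MT0 against WT0 (25.3% of all genes), 0 were called higher and 1 lower, *insrb* (-1.85 ± 0.57, edgeR FDR 0.0368).

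Genes of the intracellular cascades were called in both directions. Of 28 tested PI3K-AKT-mTOR genes, 2 were called higher and 1 lower after injury averaged over the genotypes (24.9% of all genes), which were *akt1s1* (0.53 ± 0.07), *pdpk1a* (0.64 ± 0.14), and *tsc1a* (-0.55 ± 0.11), with edgeR FDR from 0.000469 to 0.00694. In MT0, 1 was called higher and 3 lower against WT0 (25.3% of all genes). Among them were the phosphatase gene *ptenb* (-0.82 ± 0.13, edgeR FDR 0.00187) and *akt2l* (0.69 ± 0.15, edgeR FDR 0.00808). The level of *ptenb* was 23.0 and 28.2 CPM in MT0 and 22.7 and 23.5 in TG0, against 47.2 and 43.1 in WT0. In MT0 against TG0, 2 were called higher and 6 lower (20.8%), among them *akt1s1* (-1.27 ± 0.12, edgeR FDR 0.000189) and *tsc1b* (-1.29 ± 0.14, edgeR FDR 0.000352). For *akt1s1* the group apart was TG0, at 166 and 150 CPM, against 68.9 and 62.6 in MT0 and 51.8 and 57.4 in WT0. The same list had 5 calls higher and 5 lower in TG0 against WT0 (22.5% of all genes) and 4 higher and 5 lower in WT7 against WT0 (24.2%). Of 23 tested RAS-ERK genes, 1 was called higher, the adaptor gene *shc2* (1.38 ± 0.44), and 2 lower, *kras* (-0.55 ± 0.09) and *map2k2b* (-0.52 ± 0.18), after injury averaged over the genotypes (24.9% of all genes), with edgeR FDR from 0.00118 to 0.0468. In MT0, 3 were called higher and 3 lower against WT0, near the 25.3% of all genes, among them *hrasa* (1.41 ± 0.27, edgeR FDR 0.00462) and *ptpn11b* (-1.53 ± 0.21, edgeR FDR 0.000929). Against TG0, 2 were called higher and 2 lower (20.8% of all genes), among them *braf* (-0.96 ± 0.10, edgeR FDR 0.000323) and *hrasb* (-0.95 ± 0.23, edgeR FDR 0.0146).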

How the data were processed

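Total RNA of pooled ventricular apices was made into libraries with the TruSeq RNA Prep Kit v2, which does not mark strand. STAR (version 2.5.2) placed the single-end reads of 100 bases on GRCz10 (release 91), and featureCounts (version 1.5.0-p3) assigned them to genes. The authors deposited these counts unnormalized, in 1 file for each of the 12 libraries. The count files carry no coordinates or lengths, no sequences are printed, and levels were not compared between genes. Groups came from the sample labels, and the amputation time from the study.

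CPM scaled by TMM and log2 fold changes come from edgeR (version 4.0.16, R version 4.3.3). After the default filter by group (minimum count 10, minimum total 15) a quasi-likelihood model with a mean per group was fitted to all 12 libraries, and 13 contrasts were tested two-sided, with Benjamini-Hochberg FDR over 19014 genes. A call required an FDR under 0.05 and a log2 fold change beyond 0.5 in either direction, the limits of the study's figure legends. The SE of a log2 fold change was obtained from its F statistic, and 95% intervals from the t distribution of that test. SDs are over 2 replicates. Pathway lists were matched by symbol, RefSeq synonym, or RefSeq gene ID, 13 of 14 other ErbB genes and 9 of 10 insulin genes and all others of those described. Names given are all members and, from each list, up to 4 called genes with the smallest p for injury averaged over the genotypes and up to 2 each in MT0 against WT0 and TG0. The members, lists, and thresholds were chosen with earlier results of these data known. The code was checked on simulated counts. Alternatives were DESeq2 (version 1.42.0), limma-voom (limma version 3.58.1), RLE factors, no filter, a replicate block, fits of the compared libraries only, and leaving out each library.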

Additional observations from a re-analysis of the deposited data

Results flagged for a closer look

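For *igf2b*, the change with injury differed between genotypes in direct tests of that difference. The log2 change in MT7 against MT0 minus that in WT7 against WT0 was -1.97 ± 0.26 (SE, edgeR FDR 0.00793), with both MT7 libraries below both MT0 libraries and both WT7 libraries above both WT0 libraries. The change in MT7 against MT0 minus that in TG7 against TG0 was -1.36 ± 0.25 (edgeR FDR 0.0351), with both TG7 libraries above both TG0 libraries. The MT7 and MT0 libraries enter both. The call of the first difference was lost without WT7 replicate 2. That of the second was lost in 10 of the 12 fits that left out a library, at values from -1.46 to -1.30. The share of all genes with libraries separated in this way was not counted.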

How the results depend on the processing

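Of 502 recomputed log2 fold changes of members, 417 kept their direction and side of the threshold, 73 lost and 11 gained a call, and 1 turned its direction: *igf1ra* in MT0 against WT0 was 1.03 without WT0 replicate 1, with a range over left-out libraries from -2.01 to 1.03. With RLE factors or no filter, the number of members called stayed within 1.5 times in each comparison. With the replicate number as a block, 1 member was called in WT7 against WT0 (2 without it), and no other count moved by over 1.5 times. Deviations of same-numbered libraries correlated between -0.09 and 0.09 across groups, so the numbers do not pair the libraries. In fits of the compared libraries only, 0 members were called in MT7 against MT0, 2 in TG7 against TG0, 1 in WT7 against WT0, 1 in MT0 against WT0, and 0 in TG0 against WT0. limma-voom called 1 in WT7 against WT0 and 1 in TG0 against WT0. DESeq2 called 2 in TG7 against TG0 and 1 in the change in TG minus that in WT. The cause of these shifts was not tested. Leaving out 1 library each, the members called ranged from 0 to 1 in MT7 against MT0, in TG7 against TG0, in MT7 against TG7, and in the change of the mutant minus that of TG, from 0 to 2 in MT7 against WT7 and in the change of the mutant minus that of WT, from 0 to 3 in TG0 against WT0 and in the change of TG minus that of WT, from 1 to 3 in MT0 against TG0, from 1 to 4 in the average over genotypes, from 1 to 5 in WT7 against WT0, and from 1 to 6 in MT0 against WT0; in TG7 against WT7 it was 0 throughout. A group with 1 library left is assumed to vary like the others. Over all genes, calls in fits of the compared libraries only were 333 against 2289 in MT7 against MT0, 3171 against 1782 in TG7 against TG0, 2269 against 4596 in WT7 against WT0, 1233 against 4803 in MT0 against WT0, 915 against 4270 in TG0 against WT0, 1134 against 216 in TG7 against WT7, and 81 against 375 in the change of the mutant minus that of WT. Of 1631 recomputed list counts 386 moved by over 1.5 times. With at most 35 counts in any library, *igf1*, *erbb3b*, and *erbb4a* are limited by depth.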
